A study of Mus musculus with 8 samples.

Results

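Undifferentiated mouse embryonic stem (ES) cells labelled as transduced with Bmi1 were compared with control ES cells on 4 of the 8 Affymetrix arrays of the series. The arrays were chosen by their titles alone: 2 are labelled Bmi1, 1 is untreated CCE ES cells, and 1 is CCE ES cells with the empty vector. The untreated and the vector array together form the control group of 2. CCE is an established ES cell line, given as strain 129/Sv, which was grown on gelatin with leukemia inhibitory factor; the protocol mentions no feeder cells. Per the labels, the first group had received mouse Bmi1 cDNA by lentiviral infection, and the vector cells the same virus without an insert. Transduced cells were sorted by green fluorescence after passage, whereas the untreated cells carried no virus. The labels name neither the promoter of the lentivirus nor separate infections behind the 2 arrays of ES cells labelled Bmi1, so the spread between these may be technical alone. The spread between the controls is that of an untreated against a vector culture. Each p-value rests on both spreads. The series asks about blood formation from ES cells under Bmi1, and the present comparison describes the cells before they differentiate. The other 4 arrays hold embryoid bodies, which are differentiating aggregates of such cells, grown for 10 days.

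Bmi1 is a subunit of Polycomb repressive complex 1, which binds and compacts chromatin and adds ubiquitin to histone H2A, and so keeps developmental genes silent. Its best known target in many tissues is the Cdkn2a locus, which encodes 2 inhibitors of the cell cycle. In ES cells the closely related subunit Pcgf6 works with the DNA-binding proteins Mga, Max and E2f6 in a variant of the complex that holds germ cell genes silent. Many germline genes are also silenced by DNA methylation of their promoters.

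The arrays labelled Bmi1 did not show a raised Bmi1 signal. The brighter of the 2 Bmi1 probe sets read 5.68 and 6.28 (log2 level) on the arrays labelled Bmi1, 7.41 on the untreated and 7.74 on the vector array. Both arrays labelled Bmi1 were thus below both controls. The difference, labelled Bmi1 minus control, was −1.59 ± 0.23 (log2, SE of the limma fit, n = 2 and 2), and it did not pass the test (limma, adjusted p = 0.067; 0.031 to 0.25 over the alternatives). A fit of all 8 arrays that takes the sample number of the embryoid bodies as a block did call it (limma, adjusted p = 0.031). That block leaves the ES cell difference as it is and changes only its error, which then draws on the embryoid body arrays too. For genes named below that were called only with the block, its adjusted p was the lowest over the alternatives with all arrays kept. The highest over these (limma, adjusted p) was 0.098 for Myl9, 0.15 for Nefm, 0.24 for Ccnd2 and 0.44 for Hoxc13. The dimmer Bmi1 probe set gave −1.58. Both probe sets are annotated to the Bmi1 messenger RNA. The labels and annotation do not say whether the transduced insert covers them, so they may read the cell's own transcript, the viral one or both. The signal goes against the label, and directions are given throughout for arrays labelled Bmi1.

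Among the genes next to Bmi1 on chromosome 2, the largest difference was that of Mllt10, which encodes a partner of the histone methyltransferase Dot1l and lies 3 measured genes away. Mllt10 read 8.23 and 7.32 on the arrays labelled Bmi1 against 9.76 and 9.73 on the controls, a difference of −1.97 ± 0.30 (limma, adjusted p = 0.068; adjusted p with the block = 0.022). A930004D18Rik, 6 measured genes away, differed by −1.09 ± 0.29 (limma, adjusted p = 0.18). The direct neighbour Commd3 differed by −0.21 ± 0.28 with overlapping arrays, and Dnajc1, between Commd3 and Mllt10, by 0.15 ± 0.10. On the other side Pip4k2a, a lipid kinase gene, differed by −0.51 ± 0.12. None of these neighbours passed the test in the ES cell fit.

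The arrays were of ES cells by their markers. All 16 ES cell markers, among them Pou5f1, Zfp42 and Nanog, were above the array median on all 4 arrays. Of 10 fibroblast markers 6 were below the median on all 4 arrays, including Col1a1, Col1a2, Col3a1 and Postn, while Vim and Acta2 were above it on all 4, and 3 of 3 measured markers of the 2-cell-like state were below it on all 4. Of early lineage markers, 7 of 12 measured for endoderm, 6 of 9 for trophoblast, 4 of 7 for neural cells and 3 of 5 for mesoderm were above the median on all 4 arrays. Of all 18193 genes with a probe set of their own, 11733 were above it on at least 2 arrays. These counts therefore do not show whether the lineages were present. The mean level of the ES cell markers was 11.95 and 11.89 on the arrays labelled Bmi1 and 12.22 and 12.19 on the untreated and vector array. The 4 arrays shared nearly one distribution of values, with a mean absolute difference between sorted values of 0.00999 to 0.027 for the 6 pairs. Over the genes tested, the root mean square difference was 0.265 between the 2 arrays labelled Bmi1, 0.23 between the 2 controls and 0.332 between the group means.

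Of 18193 genes with a probe set of their own, 11733 were bright enough to test and 6460 were dim. Of those tested, 132 were called at an adjusted p under 0.05 (1.13%), of which 112 were higher (0.955%) and 20 lower (0.17%) in cells labelled Bmi1. The called rises ranged from 0.74 to 2.83 on the log2 scale with a median of 1.26, and the called falls from −0.82 to −3.26 with a median of −1.08. The median difference of all genes tested was 0.0016. A difference of at least 1 log2 unit, called or not, was seen for 241 genes upward and 33 downward. The median gap between the 2 control arrays was 0.112 for the called genes against 0.124 over all genes tested. A small gap lowers the error of a gene and so favours its call, so these gaps are a description only. Of the called rises, 36 were below the array median on both controls, and such genes could enter the test only by being above it on both arrays labelled Bmi1. With 2 arrays a group the count depends on each of them: 0 genes were called without the untreated array, 0 without the vector array, 0 without the first array labelled Bmi1 and 7 without the second, while 1296, 1273, 1506 and 1787 genes had an unadjusted p under 0.05 (limma), against 1870 with all 4 arrays. The fit of all 8 arrays called 6 genes without that block and 270 with it, which included 113 of the 132.

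**Figure D1:**
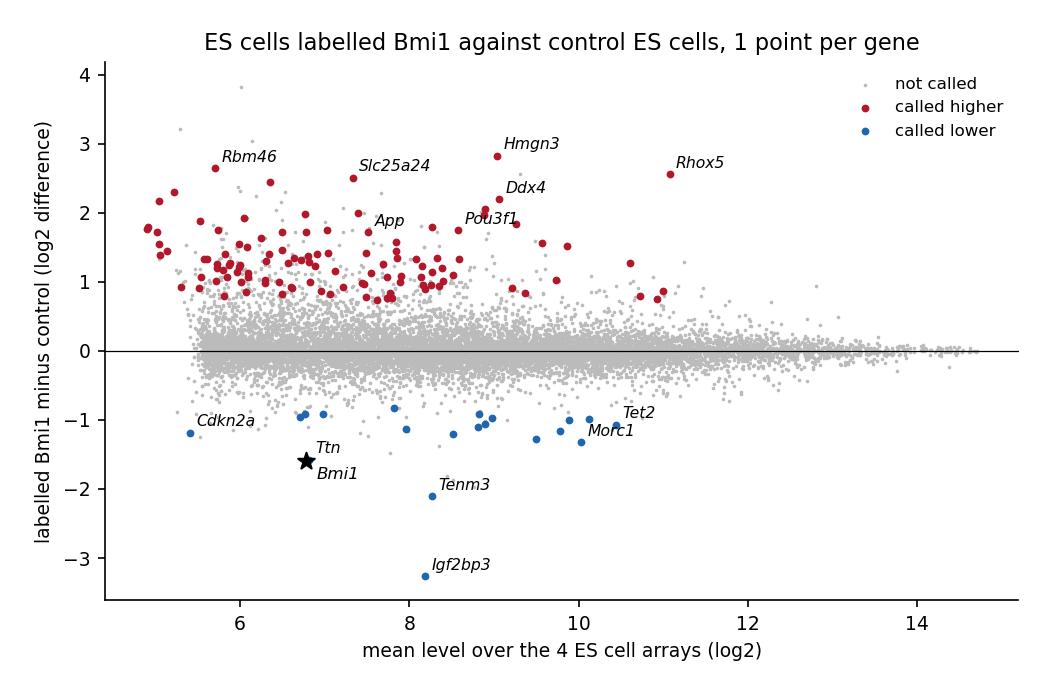
Difference, labelled Bmi1 minus control ES cells (log2, vertical) against the mean level over the 4 ES cell arrays (log2, horizontal) for the 11733 genes tested. Red points are the 112 genes called higher, blue points the 20 called lower, grey points the rest, and the star is Bmi1, which was lower without being called.

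The largest called rise was that of Hmgn3, which encodes a nucleosome-binding protein of the high mobility group. Hmgn3 read 10.73 and 10.16 on the arrays labelled Bmi1 and 7.61 and 7.64 on the untreated and vector array, so both control values lay far below. The difference was 2.83 ± 0.20, or 7.09-fold (limma, adjusted p = 0.026), and its second probe set gave 3.04. Of 7 tested high mobility group genes only Hmgn3 was called (14.3%, against 1.13% of all genes tested). Hmgb3 differed by 0.66 ± 0.12 (limma, adjusted p = 0.085).

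Rhox5, a homeobox gene of the X-linked reproductive homeobox cluster, rose from a level that was already well above the array median. It read 12.52 and 12.19 on the arrays labelled Bmi1 against 10.01 and 9.59 on the untreated and vector array, a difference of 2.56 ± 0.19, or 5.88-fold (limma, adjusted p = 0.026). The other tested genes of that cluster were not called, and Rhox6 differed by 0.83 ± 0.36 (adjusted p = 0.37).

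Slc25a24, which encodes a calcium-dependent ATP-Mg carrier of the mitochondrial inner membrane, had close values within each group. It read 8.62 and 8.55 on the arrays labelled Bmi1 against 6.0 and 6.15 on the controls, 2.51 ± 0.10 higher (5.69-fold, limma, adjusted p = 0.017). It was the 1 gene called among 16 tested mitochondrial carriers (6.25%, against 1.13% of all genes tested), whose median difference was −0.02. Sema3c, a secreted guidance cue for axons and migrating cells, read 7.68 and 7.47 against 5.09 and 5.16, 2.45 ± 0.11 higher (limma, adjusted p = 0.017). Sema3c was below the array median on both controls and entered the test only through the arrays labelled Bmi1. Its second probe set gave 1.21.

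Most further genes among the 15 largest rises encode enzymes and secreted or membrane proteins. The heparan sulfate sulfotransferase gene Hs6st2 rose by 2.0 ± 0.18, the collagen gene Col5a2 by 1.98 ± 0.10, and the insulin-like growth factor binding protein gene Igfbp3 by 1.96 ± 0.10. Galnt3, which starts mucin-type glycosylation, rose by 1.93 ± 0.11, and the extracellular chaperone gene Clu by 1.84 ± 0.14. Cdk14, a cyclin-dependent kinase gene that acts in Wnt signalling, rose by 1.88 ± 0.14, and Pogk by 2.31 ± 0.17. Cdk14, Pogk and Galnt3 were below the array median on both controls and entered the test only through the arrays labelled Bmi1. Their other, dimmer probe sets gave 0.05 and 0.19 for Cdk14, 0.63 for Pogk, and 0.63 and 0.25 for Galnt3. The adjusted p of these 7 genes (limma) ran from 0.017 for Col5a2, Igfbp3 and Galnt3 to 0.028 for Hs6st2. The 4 others of the 15, Rbm46, Ddx4, Taf7l and Rnf17, are germ cell genes.

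**Figure D2:**
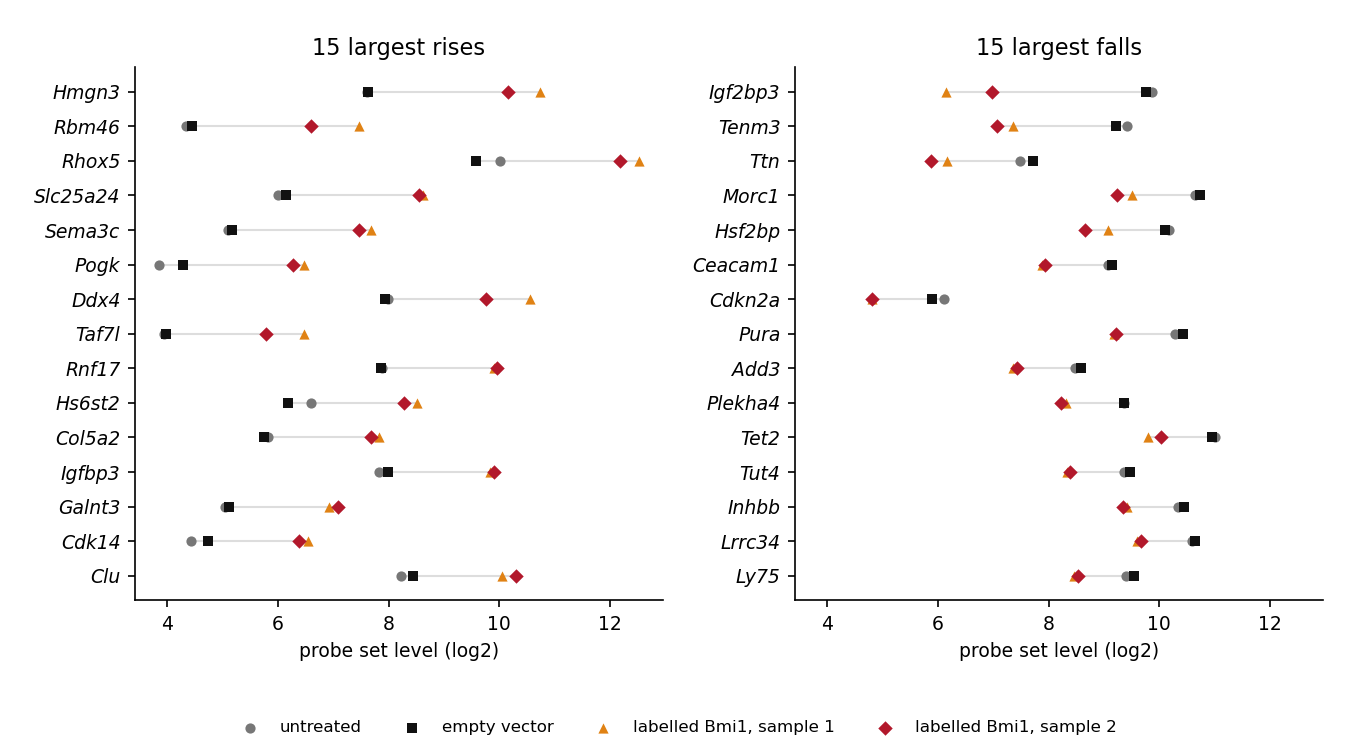
Level (log2) of the 15 genes with the largest called rises (left) and the 15 with the largest called falls (right) on each of the 4 ES cell arrays, with a grey line over the range of a gene. For these 30 genes the values of arrays labelled Bmi1 do not overlap those of the controls.

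The largest fall was that of Igf2bp3, which encodes an RNA-binding protein that binds the Igf2 messenger and other transcripts of growing embryonic cells. Igf2bp3 read 6.14 and 6.97 on the arrays labelled Bmi1 and 9.87 and 9.76 on the controls. The difference of −3.26 ± 0.28 is a 9.57-fold lower level (limma, adjusted p = 0.028). Its other 5 probe sets differed by −1.02 to −3.38, all in the same direction. The paralog Igf2bp1 differed by −0.44 ± 0.11 and was not called (adjusted p = 0.16). In the list of 14 tested genes of the insulin-like growth factor system, Igfbp3 was called higher and Igf2bp3 lower (14.3%, against 1.13% of all genes tested). Igfbp4 differed by 1.5 ± 0.24 (limma, adjusted p = 0.071, with the block 0.027). Its other probe sets, each above the array median on all 4 arrays, gave 1.59, 0.54, 0.52, 0.44 and 0.05.

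Tenm3, a cell surface protein gene of the teneurin family, read 7.36 and 7.06 against 9.41 and 9.22 on the controls, a fall of −2.10 ± 0.14 (limma, adjusted p = 0.026). Ttn, the giant sarcomere protein gene, fell by 1.58 on the log2 scale, although the other 6 tested heart and striated muscle genes were not called and had differences of no more than 0.19 in size. The called share of that list was 14.3%, against 1.13% of all genes tested. Cdkn2a, the classical Bmi1 target, read 4.81 on both arrays labelled Bmi1 against 6.11 on the untreated and 5.88 on the vector array. It fell by 1.19 on the log2 scale (limma, adjusted p = 0.031). It was the only called fall that was below the array median on both arrays labelled Bmi1, so the low side is dim and the size of the fall is uncertain. Cdkn2a thus entered the test only through the controls. Its equal values on the arrays labelled Bmi1 leave that pair without spread, which lowers the error of the fit. The annotation gives its probe set to the gene symbol, which covers both products.

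Among the other called falls, Tet2, which oxidises methylated cytosine, read 9.79 and 10.03 against 11 on the untreated and 10.95 on the vector array, a difference of −1.07 ± 0.12 (limma, adjusted p = 0.042), and its dimmer probe set gave −1.56. Kdm6b, which removes methyl groups from lysine 27 of histone H3, fell by 0.91 on the log2 scale. Tut4, which adds uridines to the ends of RNAs, fell by 1.06, and Pura, a nucleic acid binding protein gene, by 1.16. The adhesion receptor gene Ceacam1 fell by 1.20, the membrane skeleton gene Add3 by 1.13, and Inhbb, which encodes the beta-B chain of activin and inhibin, by 1.00. The adjusted p of these 6 genes (limma) ran from 0.026 to 0.0496. Other probe sets gave −0.28 for Inhbb, and −1.29, −1.40 and −0.16 for Add3. Morc1 and Hsf2bp, which act in male germ cells, fell by 1.32 and 1.28, and Hsf2bp lost its call with the block (limma, adjusted p = 0.060).

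Of the 40 gene lists examined, that of the germ line had the most called members. Of 39 listed germ cell and meiosis genes 25 were tested, 10 were dim and 4 had no probe set of their own. Of those tested, 5 were called higher and 1 lower, which is 24% called against 1.13% of all genes tested. The median difference of the tested members was 1.12 and that of all 35 measured members, dim ones included, was 0.89, against 0.0016 and 0.00071 over all genes tested and measured. Of the 35, 27 were higher on average, and 25 had both arrays labelled Bmi1 above both controls, where 22.5% of all measured genes did so. The list was chosen with earlier results of these data known, and 5 of its tested members were below the median on both controls. With 1 array left out in turn, an alternative chosen after seeing the data, the median of the tested members lay between 0.77 (without the first array labelled Bmi1) and 1.42 (without the second). These are bulk samples, in which a change in the number of cells of a type and a change in RNA per cell cannot be told apart.

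Promoter windows are shown for Ddx4, Rbm46 and Taf7l, called members of the germ cell list, and for Boll. Their letters could be compared with those of all promoters. Rnf17 and Tex15 had no window in the reference used, and Morc1 and Hsf2bp are not shown. Every window shown holds CACGTG, so the display does not stand for all called germ cell genes. Each window is from RefSeq (GRCm38.p6), written in the direction of transcription, and runs from 250 bases before the start to 50 bases after it. Capitals mark the E-box CACGTG, which Max and its partners bind, and GGCGGGAA (or its reverse complement TTCCCGCC), the type of motif that E2f6 binds. The windows of Ddx4 (chr13:112652261-112652560, minus strand), Rbm46 (chr3:82876434-82876733, minus strand), Taf7l (chrX:134476441-134476740, minus strand) and Boll (chr1:55363704-55364003, minus strand) read as follows.
Ddx4: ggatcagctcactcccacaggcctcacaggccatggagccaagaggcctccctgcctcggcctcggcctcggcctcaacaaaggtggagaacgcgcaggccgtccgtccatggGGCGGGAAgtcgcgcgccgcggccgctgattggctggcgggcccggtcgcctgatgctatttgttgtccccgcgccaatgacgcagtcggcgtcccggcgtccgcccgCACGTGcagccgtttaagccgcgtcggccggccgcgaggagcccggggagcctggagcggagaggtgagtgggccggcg
Rbm46: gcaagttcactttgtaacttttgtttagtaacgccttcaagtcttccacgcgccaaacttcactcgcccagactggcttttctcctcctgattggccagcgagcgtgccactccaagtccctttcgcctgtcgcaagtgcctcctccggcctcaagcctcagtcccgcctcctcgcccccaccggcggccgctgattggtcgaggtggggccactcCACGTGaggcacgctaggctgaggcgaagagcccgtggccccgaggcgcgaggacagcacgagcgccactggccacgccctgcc
Taf7l: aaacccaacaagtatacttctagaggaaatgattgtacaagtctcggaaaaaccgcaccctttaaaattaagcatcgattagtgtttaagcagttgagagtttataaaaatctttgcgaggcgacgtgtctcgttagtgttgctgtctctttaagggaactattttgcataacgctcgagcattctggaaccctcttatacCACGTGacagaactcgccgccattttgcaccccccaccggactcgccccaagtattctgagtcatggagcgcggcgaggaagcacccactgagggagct
Boll: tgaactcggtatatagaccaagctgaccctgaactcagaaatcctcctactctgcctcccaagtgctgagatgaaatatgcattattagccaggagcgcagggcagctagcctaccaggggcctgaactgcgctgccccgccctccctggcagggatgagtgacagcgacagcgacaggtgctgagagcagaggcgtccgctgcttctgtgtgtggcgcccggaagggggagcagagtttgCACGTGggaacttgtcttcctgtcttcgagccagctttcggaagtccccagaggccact
The E-box starts at base 222 of the window in Ddx4, 217 in Rbm46, 202 in Taf7l and 242 in Boll, where transcription starts at base 251. The 3 called germ cell list members with a window each hold 1 such E-box, and Boll, a called gene that is not on the list, does too. Over the list, 13 of 29 windows (44.8%) hold CACGTG, against 10.5% of the 9494 windows of genes tested and 7.24% of all 27025 promoters. GGCGGGAA on either strand is in 10.3% of the list's windows and in 4.28% of those of genes tested. A match describes these letters only and is not a measured binding site.

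Ddx4, which encodes the germ cell RNA helicase Vasa, read 10.55 and 9.77 on the arrays labelled Bmi1 and 7.99 and 7.93 on the untreated and vector array. The difference was 2.2 ± 0.27, or 4.6-fold (limma, adjusted p = 0.0496). It was above the array median on all 4 arrays, so the controls had a signal too. Rnf17, which encodes a tudor domain protein of male germ cells, read 9.90 and 9.95 against 7.89 and 7.85. Its difference of 2.06 ± 0.09 (4.16-fold, limma, adjusted p = 0.017) had a smaller error because both pairs of arrays were close.

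Rbm46, an RNA-binding protein gene needed for meiosis, read 7.47 and 6.59 against 4.33 and 4.44, a difference of 2.64 ± 0.30 (limma, adjusted p = 0.042). Taf7l, the germ cell relative of a subunit of the general transcription factor TFIID, read 6.47 and 5.79 against 3.94 and 3.97, a difference of 2.17 ± 0.23 (limma, adjusted p = 0.039). Both genes were below the median on both controls and above it on both arrays labelled Bmi1. Tex15, which acts in meiotic recombination and transposon silencing, rose from 7.48 and 7.35 to 8.84 and 8.66, by 1.33 ± 0.11 (limma, adjusted p = 0.028). Boll, a germ cell RNA-binding protein gene of the Dazl family, rose by 1.33 ± 0.16 from levels below the array median on both controls (limma, adjusted p = 0.045). Morc1 went the other way, from 10.64 and 10.74 on the controls to 9.50 and 9.24.

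The germ cell genes with the largest differences were not called, since the arrays within each group stood apart. Tex11, an X-linked meiosis gene, read 8.60 and 7.24 on the arrays labelled Bmi1, 4.75 on the untreated and 3.44 on the vector array, a difference of 3.83 ± 0.61 (limma, adjusted p = 0.070). Mael, a gene of the piRNA pathway that silences transposons, read 7.98 and 5.80 against 4.0 and 3.36, a difference of 3.21 ± 0.73 (limma, adjusted p = 0.13). Both Tex11 and Mael were below the array median on both controls and entered the test only through the arrays labelled Bmi1. Of further genes of that pathway or of meiosis, Tdrkh, Piwil2 and Meioc, differed by 2.04 ± 0.36, 1.86 ± 0.32 and 1.95 ± 0.40. Dazl, a germ cell RNA-binding protein gene, read 7.09 and 6.74 against 5.83 and 5.52. In the blocked fit 10 of the 25 were called higher and 1 lower, and Tex11, Tdrkh, Piwil2, Meioc and Dazl were among them at adjusted p from 0.022 to 0.044. The synaptonemal complex gene Sycp3 had overlapping arrays (8.89 and 8.08 against 9.02 and 7.95).

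Within the germ cell list the arrays also kept an order inside each group. The first array labelled Bmi1 was above the second for 23 of the 25 tested members, against 54.4% of all genes tested, and the vector array was above the untreated one for 4 of 25, against 49.5%. The part of this order in the group difference was not tested.

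**Figure D3:**
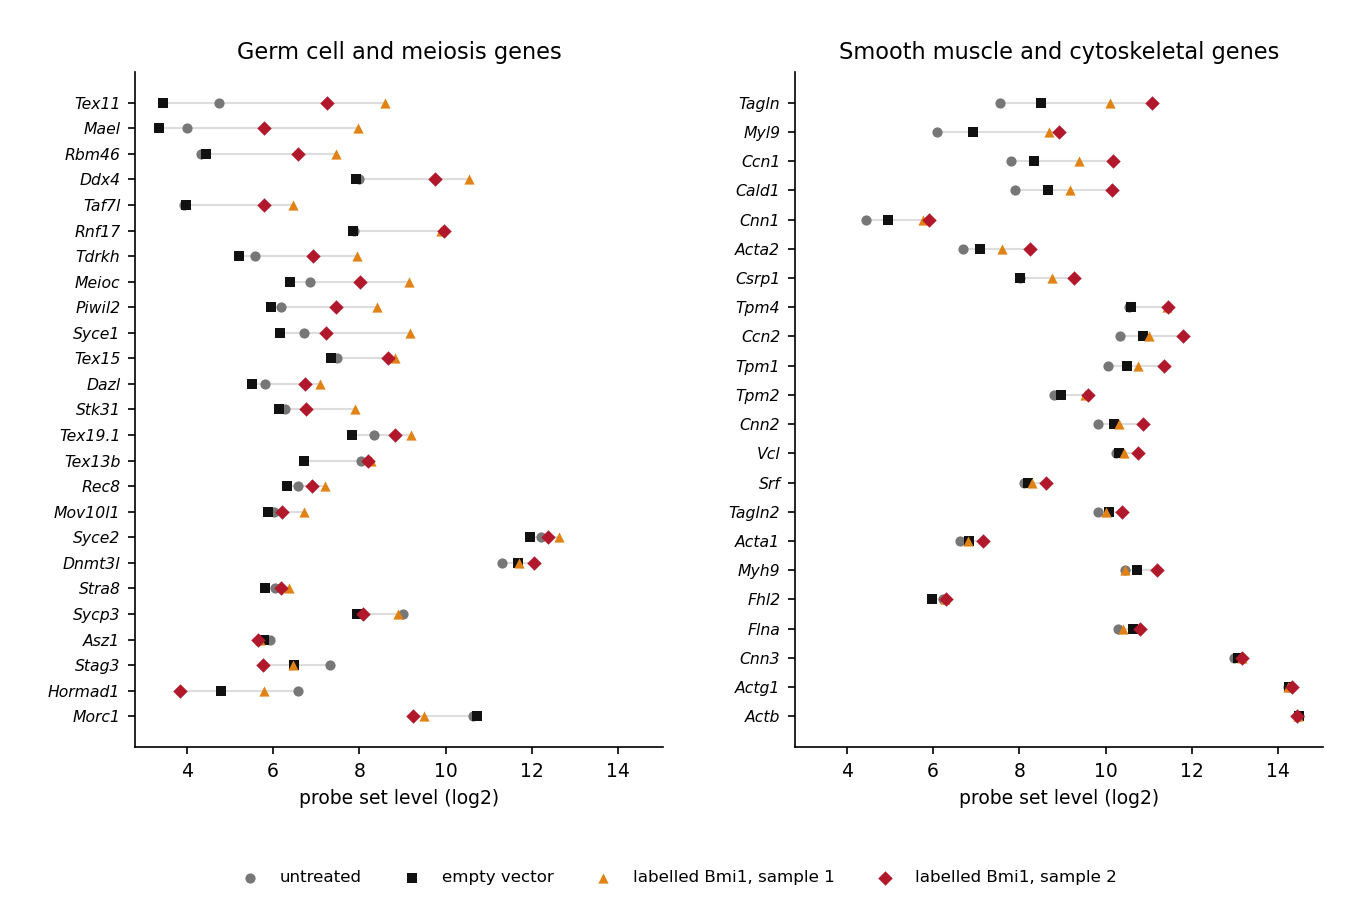
Level (log2) of the 25 tested germ cell and meiosis genes (left) and the 22 tested smooth muscle and cytoskeletal genes (right) on each of the 4 ES cell arrays, sorted by the group difference. In the left panel the first array labelled Bmi1 is above the second for 23 genes; in the right panel this holds for 1 gene.

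Smooth muscle and cytoskeletal genes, many of them targets of serum response factor (SRF), were also mostly higher on the arrays labelled Bmi1. Of 25 listed genes 22 were tested, 21 had a positive difference, and 16 had both arrays labelled Bmi1 above both controls, where 24.8% of all genes tested did so. Their median difference was 0.63, and 0.35 without the second array labelled Bmi1. Over all 25 measured members, the 3 dim ones included, it was 0.31. Only Tpm4, a tropomyosin gene, was called (4.55% of the tested members, against 1.13% of all genes tested). Tpm4 read 11.43 and 11.44 against 10.55 and 10.58, a rise of 0.87 ± 0.09 (limma, adjusted p = 0.033). Myl9, a myosin light chain gene, read 8.70 and 8.92 on the arrays labelled Bmi1, 6.10 on the untreated and 6.94 on the vector array, which is 2.29 ± 0.29 higher at an adjusted p of 0.0501 (limma; adjusted p with the block = 0.020). Tagln, an actin-binding protein gene of smooth muscle, read 10.11 and 11.07 against 7.55 and 8.51, 2.56 ± 0.44 higher (limma, adjusted p = 0.079; adjusted p with the block = 0.030). Myh11, the smooth muscle myosin heavy chain gene that marks mature cells, was below the array median on all 4 arrays, with levels of 4.68, 4.75, 4.74 and 4.67. The mean level of the 10 fibroblast markers, which share Acta2 with this list, was 5.74 and 5.75 on the arrays labelled Bmi1 and 5.61 on each control, and its part in the result was not tested.

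The order of the arrays in this list was the reverse of that in the germ cell list. The first array labelled Bmi1 was above the second for 1 of 22 genes, and the vector array was above the untreated one for 19 of 22. Keratins and neurofilament genes with large differences had the same order: Krt18 read 7.69 and 9.17 against 6.43 and 7.37, and Nefm 7.12 and 8.18 against 3.97 and 5.27, a difference of 3.03 ± 0.54 (limma, adjusted p = 0.082; adjusted p with the block = 0.030). Nefm was below the array median on both controls and entered the test only through the arrays labelled Bmi1. None of the 14 tested intermediate filament genes was called in the ES cell fit, against 1.13% of all genes tested.

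Of 13 tested cadherins, claudins and factors of the epithelial-mesenchymal transition 4 were called (30.8%), each of them higher, where 0.955% of all genes tested were called higher. Cdh2, N-cadherin, read 9.27 and 9.24 against 7.81 and 8.05, a rise of 1.33 ± 0.12 (limma, adjusted p = 0.028). The tight junction genes Cldn6 and Cldn7 rose by 1.34 ± 0.13 and 1.80 ± 0.20 (limma, adjusted p = 0.033 and 0.044; adjusted p with the block = 0.17 and 0.058), and Cdh3, P-cadherin, by 0.78 ± 0.10 (adjusted p = 0.0498). Cdh1, E-cadherin of ES cells, was not called. The list names both epithelial and mesenchymal genes, and those called belong to both kinds. Outside the list, the tight junction genes Marveld2, Marveld3 and Cxadr rose by 0.98, 1.31 and 0.95; Marveld2 lost its call with the block (limma, adjusted p = 0.087).

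In the prostaglandin list 2 of 9 tested genes were called (22.2%, against 1.13% of all genes tested): Pla2g4a, the phospholipase that frees arachidonic acid, rose by 1.41 ± 0.10, and Ptger4, a receptor for prostaglandin E2, by 1.42 ± 0.11. Ptgs2, the inducible cyclooxygenase gene between these steps, read 6.92 and 7.40 against 4.28 and 5.31 and was not called (2.37 ± 0.37, limma, adjusted p = 0.069; adjusted p with the block = 0.022). Pla2g4a and Ptgs2 were below the array median on both controls and entered the test only through the arrays labelled Bmi1. In the FGF list 2 of 18 were called (11.1%, against the same 1.13%): Fgf13, an intracellular relative of the growth factors, rose by 1.57 ± 0.10, and Dusp4, a phosphatase that switches off MAP kinases, by 1.45 ± 0.15. Among 27 tested Nodal, BMP and TGF-beta genes the receptor gene Tgfbr2 rose by 0.93 ± 0.11 (limma, adjusted p = 0.0496, with the block 0.19) and Inhbb fell. These 2 were the called members (7.41%, against 1.13% of all genes tested). Tgfbr2 too was below the array median on both controls. None of 21 Wnt, 11 LIF and STAT3, 17 p53 or 23 stress response genes was called, where 1.13% leaves little room for a call.

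Among proteins at the cell surface, App, the amyloid precursor, rose with little spread. It read 8.31 and 8.44 against 6.67 and 6.64, a difference of 1.72 ± 0.10 (3.30-fold, limma, adjusted p = 0.018), and its second bright probe set gave 1.5. Adam10, which cleaves App, read 6.71 and 7.35 against 8.43 and 8.58 and was not called (adjusted p = 0.068). Of 12 tested sialyltransferases 2 were called (16.7%, against 1.13% of all genes tested), both of which were below the array median on both controls and entered the test only through the arrays labelled Bmi1: St6gal2 rose by 1.77 ± 0.10, and St8sia4, which makes polysialic acid, by 1.16 ± 0.14 (adjusted p = 0.0496; adjusted p with the block = 0.077).

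**Figure D4:**
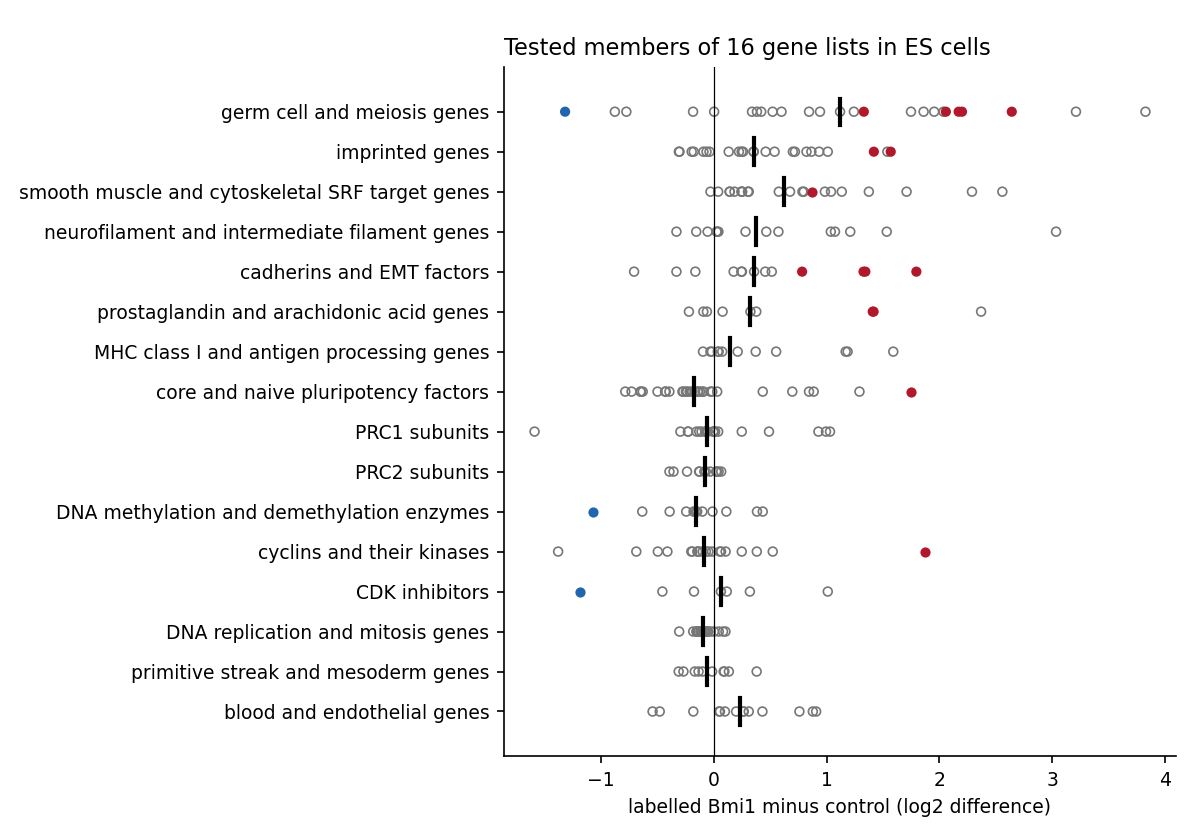
Difference, labelled Bmi1 minus control ES cells (log2) for the tested members of 16 of the 40 gene lists. Red and blue points are members called higher and lower, open points were not called, and the bar is the median of a list. The germ cell list has the median farthest from 0 (1.12), and its tested members run from −1.32 to 3.83.

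Of 30 tested pluripotency factors 1 was called (3.33%, against 1.13% of all genes tested), Pou3f1 (Oct6), a POU factor of the early epiblast. Pou3f1 read 9.35 and 9.55 on the arrays labelled Bmi1 against 7.44 on the untreated and 7.96 on the vector array (1.75 ± 0.20, limma, adjusted p = 0.043). For 17 of the 30 both arrays labelled Bmi1 were below both controls, where 21.3% of all genes tested were, and the median difference was −0.18. Esrrb, a factor of the naive state, read 10.86 and 10.54 against 11.39 and 11.32 (−0.65 ± 0.14, limma, adjusted p = 0.11), and Prdm14, which represses DNA methylation and epiblast genes, differed by −0.65 ± 0.11 (adjusted p = 0.082). Otx2, an epiblast factor, differed by 0.89 ± 0.19 (adjusted p = 0.12). Apart from Pou3f1 these values did not pass the test.

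No Polycomb gene was called in the ES cell fit, where 1.13% of all genes tested were. That share leaves little room for a call in lists this short. Of 22 tested subunits and partners of Polycomb repressive complex 1, those with the smallest p after Bmi1 were E2f6, Bcor and Yaf2, all parts of variant complexes. E2f6, a repressor that lacks the activating domain of other E2F proteins, read 9.85 and 9.35 against 8.59 and 8.55. The difference was 1.03 ± 0.18 (limma, adjusted p = 0.082, with the block 0.036), and its second probe set gave 0.29. Bcor differed by 0.99 ± 0.18 (adjusted p = 0.085) and Yaf2 by 0.93 ± 0.18 (adjusted p = 0.099; adjusted p with the block = 0.045). The 12 tested subunits of Polycomb repressive complex 2 lay between −0.39 and 0.07. Of 9 tested Hox genes, the textbook Polycomb targets, none was called, and 24 others were dim. Hoxc13 differed by −0.72 ± 0.10 (limma, adjusted p = 0.053, with the block 0.032). It was below the array median on both arrays labelled Bmi1 and entered the test only through the controls.

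Replication and mitosis genes lay close to 0, which was not so for each cell cycle regulator. The 24 tested replication and mitosis genes lay between −0.31 and 0.10, and none was called, against 1.13% of all genes tested. Among 7 tested inhibitors of cyclin-dependent kinases only Cdkn2a was called (14.3%, against 1.13% of all genes tested). Cdkn1c, an imprinted inhibitor, differed by 1.01 ± 0.24 (limma, adjusted p = 0.14). Ccnd2, cyclin D2, read 7.53 and 7.78 against 9.25 and 8.83, a difference of −1.38 ± 0.18 (limma, adjusted p = 0.053; adjusted p with the block = 0.020). Of 12 tested DNA methylation and demethylation enzymes only Tet2 was called (8.33%, against the same 1.13%). Its relative Tet1 differed by −0.39 ± 0.12 (limma, adjusted p = 0.21), and the methyltransferase gene Dnmt3b by 0.43 ± 0.14 (adjusted p = 0.23).

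Of 24 tested imprinted genes, which are expressed from 1 parental copy, 17 had a positive difference, against 50.5% of all genes tested. Both arrays labelled Bmi1 were above both controls for 13 of them, against 24.8% of all genes tested, and the median difference was 0.35. With 1 array left out in turn it lay between 0.311 (without the second array labelled Bmi1) and 0.599 (without the vector array). Grb10, an adaptor that restrains growth factor signalling, read 10.43 and 10.26 against 8.93 and 8.63 (1.57 ± 0.14, limma, adjusted p = 0.028), and Nnat, a membrane protein gene of developing neurons, 7.80 and 7.68 against 6.32 and 6.33 (1.42 ± 0.10, limma, adjusted p = 0.026). Among the markers of other cell types, Dab2, an endocytic adaptor of primitive endoderm, was the only called gene of 14 tested endoderm genes (7.14%, against 1.13% of all genes tested). Dab2 rose by 1.27 ± 0.16 (limma, adjusted p = 0.0496). No gene of the trophoblast, neural, blood and endothelial, or primitive streak list was called, against 1.13% of all genes tested. The blood transcription factor gene Lmo2 differed by 0.76 ± 0.11 (limma, adjusted p = 0.060). None of the 12 tested genes of the MHC class I and antigen processing list was called, against the same 1.13%. H2-K1 and its light chain gene B2m differed by 1.59 ± 0.25 and 1.19 ± 0.17 (limma, adjusted p = 0.070 and 0.060, with the block 0.027 and 0.025). Outside the list, the MHC class I gene H2-Bl was called, with a rise of 1.00 ± 0.10 (limma, adjusted p = 0.033). H2-Bl was below the array median on both controls and entered the test only through the arrays labelled Bmi1.

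Called genes were on all autosomes and on the X chromosome. Of 371 tested X-linked genes 11 were called higher and 1 lower, 3.23% in all, against 1.06% of the 11317 autosomal genes. The rises included Rhox5, Taf7l, Hs6st2, Fgf13 and Morc4. The median difference of X-linked genes was 0.056, and the vector minus the untreated array gave −0.05 for the same genes. The medians of the autosomes lay between −0.023 and 0.026.

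The difference between groups was set against that in embryoid bodies in the blocked fit of all 8 arrays. Pairs that include an embryoid body array were less alike, with a mean absolute difference between sorted values of 0.0305 to 0.441. Of all genes tested 58 (0.494%) differed between the stages, and 31 of them were among the 132. Since the 132 were chosen on the ES cell arrays, which are part of this test, that share is a description. Of the 112 called rises, 60 were positive in embryoid bodies, where 42% of all genes tested were, and 7 were called higher there (0.784% of all genes tested). Of the 20 falls, 13 were negative and 1 was called lower there (0.375% of all genes tested). Rhox5 was among the former: in embryoid bodies it read 11.52 and 11.70 against 8.82 and 9.88, a difference of 2.26 ± 0.24 (limma, adjusted p = 0.030). Hmgn3 was close to equal in embryoid bodies, with 9.09 and 9.59 against 9.18 and 9.33, and its difference between the stages was 2.74 ± 0.28 (limma, adjusted p = 0.019). Ttn was called in opposite directions, with a difference of 1.12 ± 0.16 in embryoid bodies. For the germ cell list the median in embryoid bodies was 0.52, with 18 of 25 positive and 1 called higher.

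**Figure D5:**
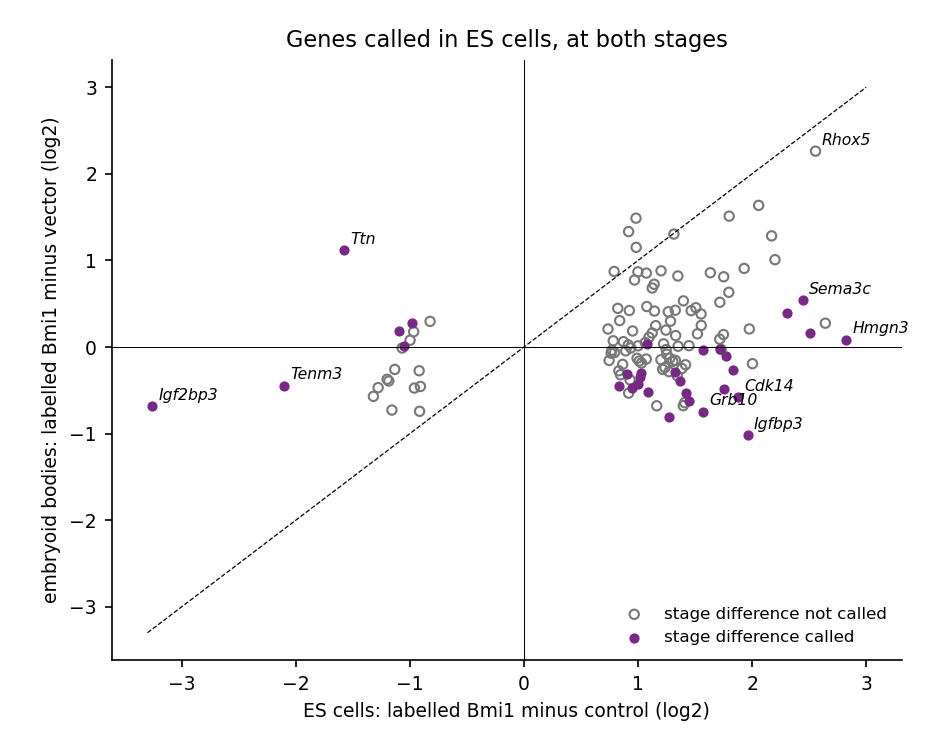
Difference in embryoid bodies (log2, vertical) against that in ES cells (log2, horizontal) for the 132 genes called in ES cells; the dashed line marks equal differences. Purple points are the 31 genes whose difference between the stages was called; Rhox5 lies near the line, and Hmgn3, Igfbp3 and Igf2bp3 lie away from it.

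The promoter windows of the called genes were set against those of all genes tested. CACGTG was in 11 of 83 windows of called rises (13.3%) and in 3 of 16 of called falls (18.8%), against 10.5% of genes tested. GGCGGGAA on either strand was in 7.23% and 6.25%, against 4.28%. The palindrome TGACGTCA, bound by CREB factors, was in 2 windows of rises (2.41%) and 2 of falls (12.5%), against 3.27% of those of genes tested. TATAAA on either strand was in 7.23% of the windows of rises and 6.25% of those of falls, against 6.91%. The median number of CpG sites was 25 for rises, 20.5 for falls and 21 for genes tested, against 7 for all promoters.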

How the data were processed

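The authors deposited RMA values in log2 units, per the submitters' processing notes, with no version stated; RMA corrects background, normalizes arrays together and summarises each probe set. Array number limits the precision. Of 45101 probe sets 64 controls were set aside; 34945 of the rest had 1 gene symbol in the platform annotation, 932 had several and 9160 none. The brightest such probe set over the 4 ES cell arrays stood for a gene. Genes above the array median on at least 2 arrays were tested.

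The 4 arrays were fitted with limma 3.58.1 (R 4.3.3; lmFit, eBayes), with 2 residual degrees of freedom, two-sided p-values, and Benjamini-Hochberg adjustment over all genes tested with a threshold of 0.05. The fit was tested on simulated data. Named are Bmi1 and its neighbours, the 15 largest called rises and falls, and up to 4 members of each of 40 lists with the smallest p; further genes were named after their values were seen. Members and lists were chosen with earlier results of these data known. The lists hold 809 genes, of which 578 were tested and 37 called, and no set test was run. Since 1.13% of all genes tested were called, a short list without a call says little about its members. In the fit of all 8 arrays the sample number of the embryoid body arrays was the block. Alternatives were the filter, the probe set rule, the scaling, the prior, array weights, the arrays fitted and a 2-fold minimum. Close paralogs may cross-hybridise.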

Additional observations from a re-analysis of the deposited data

Results flagged for a closer look

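For 20 of the genes named in the text the difference between arrays labelled Bmi1 and control arrays itself differed between ES cells and embryoid bodies (limma, the blocked fit of all 8 arrays, adjusted p from 0.016 to 0.047). All 20 were called on the ES cell arrays, which are part of this test, so a difference between the stages was favoured in advance and the values are a description. The values are the ES cell difference minus the embryoid body difference, on the log2 scale. For rises in ES cells they were 2.98 for Igfbp3, 2.74 for Hmgn3, 2.45 for Cdk14, 2.35 for Slc25a24, 2.31 for Grb10, 2.10 for Clu, 2.08 for Dab2, 1.96 for Nnat, 1.92 for Pogk and 1.91 for Sema3c. They were 1.87 for St6gal2, 1.74 for App, 1.62 for Cdh2 and 1.60 for Fgf13. For falls in ES cells they were −1.07 for Tut4, −1.26 for Lrrc34, −1.28 for Plekha4, −1.66 for Tenm3, −2.57 for Igf2bp3 and −2.69 for Ttn. In ES cells alone Plekha4 differed by −1.10, while its other probe sets gave −0.06, −0.10 and −0.18.

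Igfbp3 was higher in ES cells labelled Bmi1 by 1.96 and differed by −1.02 in embryoid bodies, where it read 8.00 and 8.65 against 9.45 and 9.24. The imprinted genes Grb10 and Nnat had differences of −0.75 and −0.54 in embryoid bodies. These embryoid body values were not called.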

How the results depend on the processing

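No paired analysis was possible because the control ES cell arrays carry no replicate number; with the embryoid body set as a replicate block, all 8 arrays gave 270 calls (221 higher, 49 lower) and called Bmi1 (−1.59, adjusted p = 0.031), and without the block 6, 6 and 0 (773 at an unadjusted p under 0.05). Counts beyond 1.5 times the 132 (112 and 20) were 74 (54 higher) with the 75th percentile filter and 43 (36 and 7) with every probe set alone. Falls numbered 11 with the mean of probe sets and 12 at a 2-fold minimum. Leaving out 1 array gave 0 to 7 calls (0 to 6 higher, 0 to 1 lower), with the lone array of a group assumed to vary like the other group. Bmi1 was too dim for the 75th percentile filter and has no value there. The counts with no filter, quantile normalization, median centring, a trended robust prior or array weights lay between 109 and 155. Over all alternatives the adjusted p of the 30 named genes whose call changed with the block ran from 0.0198 to 1. Of 1897 values of 140 named genes 1896 kept their direction; Commd3 ranged from −0.61 to 0.19 over fits without 1 array. The cause was not tested.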
